A study of Sus scrofa with 42 samples.

Results

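Genomic imprinting was followed in single cells of pig embryos through 8 genes known to be imprinted in mammals, which were picked by name from a deposited table of 15351 genes. INPP5F, PLAGL1, MEST, SGCE, PEG10, DIRAS3 and NAP1L5 are expressed from the paternal copy, and IGF2R is expressed from the maternal copy. The table names 7 of the 8, and NAP1L5 was found by its gene ID, ENSSSCG00000009209, whose position equals that of RefSeq NAP1L5. All 8 had a level of at least 1 FPKM (fragments per kilobase of gene, scaled to the mapped reads) in at least 3 cells and so were among the 8116 genes tested.

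The study sequenced 42 cells of 20 embryos, 21 cells after in vitro fertilization (IVF) and 21 after parthenogenetic activation (PA). All embryos came from pig (Sus scrofa) oocytes matured in culture. IVF oocytes were co-incubated with sperm, whereas PA oocytes received electric pulses and were then kept in 6-dimethylaminopurine and cytochalasin B, so that a PA embryo carries no paternal chromosome. Embryos of the 1-, 2-, 4- and 8-cell stages were taken at 19, 27, 48 and 72 h. Time was counted from the end of co-incubation with sperm in IVF and from the electric pulses in PA. The same hour is therefore not the same time since activation in both methods. Each method gave 3 zygotes, 2 blastomeres from each of 3 2-cell embryos, 9 blastomeres of 3 4-cell embryos and 3 blastomeres of a single 8-cell embryo. The embryo was the replicate, and its value was the mean FPKM of its sequenced blastomeres. That the embryos of a group came from separate batches of oocytes is not stated, so the p-values measure the spread between these embryos.

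Imprinted genes carry a methylation mark laid down in one parental germ line, and the mark leaves a single parental copy active in the embryo. A parthenogenetic embryo has maternal copies throughout, so paternally expressed genes are the ones it is expected to lack once the embryonic genome is transcribed, while transcripts stored in the oocyte can be present in both kinds of embryo. In the pig the main wave of embryonic transcription is known to start around the 4-cell stage.

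Reads could be recovered from the FPKM for 14638 genes, 99.6% of those expressed, and gave 3694875 to 12927905 reads per cell with a median of 8882712. A single read of a member was worth 0.00404 FPKM (IGF2R) to 0.0442 FPKM (NAP1L5) at the median. Mitochondrial mRNAs took a median of 34.0% of the FPKM in IVF 4-cell blastomeres, against 22.5% in PA 4-cell blastomeres, and FPKM are shares of a cell's reads, so less RNA of a gene and more RNA of other genes cannot be told apart. Of the oocyte markers, 7 of 8 could be analysed here and their summed level was 179 to 268 FPKM in IVF zygotes and 225 to 553 FPKM in PA zygotes. Cumulus and granulosa cell markers (4 of 10 analysed) summed to at most 18.5 FPKM in a cell. Of the sperm markers 2 of 8 (ODF2 and AKAP4) could be analysed here, and they summed to 1.33 to 2.65 FPKM in IVF zygotes and 0.0150 to 0.710 FPKM in PA zygotes, without overlap, with up to 32.8 FPKM in an IVF 8-cell and 10.4 FPKM in a PA 2-cell blastomere. AKAP4 was at 0 in all zygotes, so the zygote values are of ODF2 alone. ODF2 had a mean of 1.73 FPKM in PA 2-cell embryos, which had no sperm. In 2 pairs a PA 4-cell blastomere nearly repeated a PA 2-cell blastomere, namely 4-cell 1-4 with 2-cell 1-2 and 4-cell 2-1 with 2-cell 2-1 (embryo number first). Pearson's r of their log2 values was 0.999 in both pairs and at most 0.908 in the other 859 pairs of cells, so the 4-cell differences, the sums over members and the count of split sisters that rest on these cells are also given without them.

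The DNA before some of the members is shown because SGCE and PEG10 share it and because NAP1L5 lies inside another gene. SGCE and PEG10 lie head to head on chromosome 9, with 130 bases between their starts in the deposited table. That gap holds 9 CpG dinucleotides, the substrate of the imprinting mark. NAP1L5, a gene of 899 bases, lies wholly inside HERC3 on the other strand. Its 250 bases before the start hold 33 CpG, more than 91.4% of the 15322 genes with such a window, whose median is 12. The windows of the other members held from 10 (DIRAS3) to 41 CpG (IGF2R, more than 97.3% of genes). The window of INPP5F was left out. In the sequences taken from the Sscrofa11.1 genome below, capitals mark CpG in the first and matches to TGCCGC, the hexamer that the imprint-keeping protein ZFP57 binds when methylated, in the second.
SGCE-PEG10 gap (chr9:74473961-74474090, plus strand): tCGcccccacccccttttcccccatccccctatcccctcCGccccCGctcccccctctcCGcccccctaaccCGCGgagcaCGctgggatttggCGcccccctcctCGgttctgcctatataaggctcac
NAP1L5 window (chr8:130364316-130364565, plus strand): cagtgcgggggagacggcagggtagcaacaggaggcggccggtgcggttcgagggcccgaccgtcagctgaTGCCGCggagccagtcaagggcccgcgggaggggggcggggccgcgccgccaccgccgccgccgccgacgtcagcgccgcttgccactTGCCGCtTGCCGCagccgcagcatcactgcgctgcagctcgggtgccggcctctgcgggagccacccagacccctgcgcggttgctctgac
TGCCGC or its reverse complement GCGGCA occurred 3 times in the NAP1L5 window and 1 time in that of MEST, and in 14.0% of all such windows. PLAGL1, SGCE, PEG10, DIRAS3 and IGF2R had no match in these 250 bases. A match is a description of letters and not of a bound site.

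Most values of the 8 genes were at 0 reads or above 100 reads, while others lay between. Of the 336 values (8 genes in 42 cells), 121 were at 0 reads, 66 at 1 to 10 reads, 27 at 11 to 100 reads and 122 above 100 reads. A level of 1 FPKM or more, used below for presence above trace, was reached by 119 values.

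**Figure D1:**
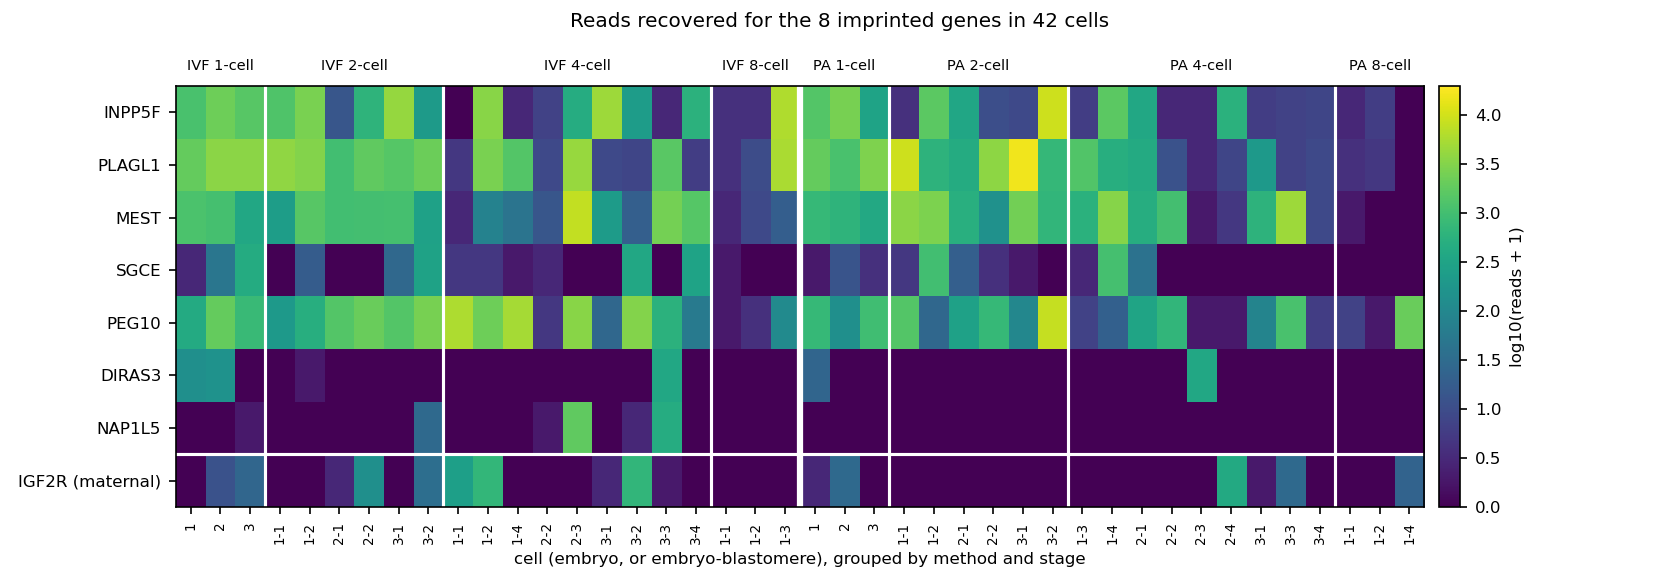
Reads recovered for each of the 8 genes (rows) in each of the 42 cells (columns, grouped by method and stage), coloured by log10(reads + 1). INPP5F, PLAGL1, MEST and PEG10 were read in most zygotes and 2-cell blastomeres and became patchy at the 4-cell stage, while NAP1L5 had 0 reads in all 21 PA cells.

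INPP5F, a phosphatase of membrane phosphoinositides, and PLAGL1, a zinc-finger transcription factor that slows growth, were the highest of the members before the 4-cell stage. INPP5F stood at 12.0, 19.1 and 13.9 FPKM in the 3 IVF zygotes and at 8.67, 17.9 and 2.51 FPKM in the 3 PA zygotes. The ranges overlapped. At the 2-cell stage the embryo means were 21.9, 2.33 and 19.8 FPKM in IVF embryos, against 5.91, 1.51 and 35.4 FPKM in PA. At the 4-cell stage they were 10.5, 2.55 and 16.3 FPKM in IVF embryos, against 5.93, 2.54 and 0.0786 FPKM in PA, with 5 of 9 IVF and 3 of 9 PA blastomeres at 1 FPKM or more. The IVF minus PA difference at that stage was 1.58 on the log2(FPKM + 1) scale (SE 1.03, 95% interval -0.58 to 3.74, limma adjusted p = 0.534). Of the PA values, 4-cell 1-4 nearly repeats a 2-cell cell, and without both repeated 4-cell blastomeres the difference was 2.51 (adjusted p = 0.170). In the mouse it is a shorter INPP5F transcript that is imprinted, and gene-level values do not separate transcripts.

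PLAGL1 stood at 9.99, 15.6 and 17.0 FPKM in IVF and at 6.13, 4.09 and 12.7 FPKM in PA zygotes. In 2-cell embryos it was at 20.8, 5.03 and 8.25 FPKM in IVF and at 21.9, 7.36 and 31.4 FPKM in PA, and every one of the 12 blastomeres reached 1 FPKM. In 4-cell embryos it was at 6.63, 12.1 and 1.47 FPKM in IVF and at 4.76, 0.473 and 0.534 FPKM in PA. All 3 PA 4-cell embryos therefore lay below all 3 PA 2-cell embryos, as did 8.29% of the genes tested. The PA 4-cell minus 2-cell difference was -2.97 on the log2(FPKM + 1) scale (SE 0.815, 95% interval -4.67 to -1.26), with a limma adjusted p of 0.165 that missed the threshold of 0.05. It was called (-3.61, adjusted p = 0.0388) without PA 4-cell embryo 1. Without the 2 repeated 4-cell blastomeres it was -2.94 (adjusted p = 0.0505), and with cells scaled by their median ratio over 1070 genes read in every cell it was -1.14 (adjusted p = 0.586). In IVF the same step was -0.77 (95% interval -2.47 to 0.94), and the IVF minus PA difference of the steps was 2.20 (95% interval -0.21 to 4.61, adjusted p = 0.893), so the steps were not shown to differ.

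HYMAI, a non-coding RNA at the PLAGL1 locus, is listed within PLAGL1 on the other strand (chr1:21304963-21305199). It had 1830 reads (287 FPKM) in IVF 4-cell blastomere 1-4, at most 3 reads in the other IVF cells and 0 reads in all 21 PA cells. PLAGL1 itself was at 6.76 FPKM in that blastomere. HYMAI passed 1 FPKM in this single cell and was not tested.

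MEST, a member of the alpha/beta hydrolase family, was read in both IVF and PA embryos up to the 4-cell stage. It stood at 5.81, 4.33 and 1.62 FPKM in IVF and at 2.22, 1.98 and 1.54 FPKM in PA zygotes, and at 4.12, 3.37 and 2.83 FPKM in IVF embryos, against 11.9, 1.26 and 5.30 FPKM in PA 2-cell embryos. In 4-cell embryos it was at 0.185, 20.5 and 4.20 FPKM in IVF and at 6.91, 1.73 and 9.73 FPKM in PA. The PA embryos thus held this paternally expressed gene at levels inside the IVF range, and 6 of 9 PA against 4 of 9 IVF 4-cell blastomeres were at 1 FPKM or more. The difference was -0.27 on the log2(FPKM + 1) scale (SE 0.936, 95% interval -2.23 to 1.69, limma adjusted p = 0.977). Without the repeated 4-cell blastomeres PA embryos 1 and 2 were at 2.81 and 1.71 FPKM and the difference was 0.09 (adjusted p = 1), so its sign was not settled. The highest MEST level was 40.9 FPKM in IVF 4-cell blastomere 2-3 and the next was 25.2 FPKM in PA 4-cell blastomere 3-3, whose reads do not come from a repeated library. MEST overlaps COPG2, a coat protein gene on the other strand, over 41114 bases. Both were at 1 FPKM or more in 21 of the 42 cells (r = 0.41 of log2 values over 42 cells of 20 embryos, a description), and without strand information reads of the overlap cannot be told apart.

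SGCE, which encodes epsilon-sarcoglycan of the cell membrane, was low. It was at 1 FPKM or more in 4 IVF and 2 PA cells, at most 5.10 FPKM, and at 0 reads in 18 cells. Both PA cells, 2-cell 1-2 (4.75 FPKM) and 4-cell 1-4 (5.10 FPKM), are one of the nearly repeated pairs. With both cells of that pair left out, no PA cell held SGCE at 1 FPKM, and with either of them kept, that cell did. The 4-cell difference was -0.24 on the log2(FPKM + 1) scale (95% interval -1.48 to 0.99), and 0.38 without the repeated 4-cell blastomeres (limma adjusted p = 0.747).

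PEG10, a retrotransposon-derived gene needed for the placenta, was the member with reads in all 42 cells. It stood at 2.63, 9.66 and 4.41 FPKM in IVF and at 2.78, 0.553 and 4.77 FPKM in PA zygotes. At the 2-cell stage it was at 2.23, 7.44 and 10.4 FPKM in IVF and at 3.62, 2.21 and 18.9 FPKM in PA embryos, again with overlapping ranges. At the 4-cell stage it was at 33.9, 10.9 and 5.91 FPKM in IVF and at 0.0624, 1.46 and 2.90 FPKM in PA embryos, which did not overlap.

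Among all genes tested, 9.65% had IVF 4-cell embryos that all lay above the PA ones, and PEG10 was the 1 member of 8 to do so. Its difference was 2.71 on the log2(FPKM + 1) scale (SE 0.890, 95% interval 0.85 to 4.58, unadjusted p = 0.00660), but the limma p adjusted over 8116 genes was 0.157 and the gene was not called. Without the repeated PA 4-cell blastomeres the difference was 2.73 (adjusted p = 0.0952). Under median-ratio scaling it was 0.90 (adjusted p = 0.681), and over the 31 alternatives the adjusted p ranged from 0.0952 to 0.742. At the 1-cell and 2-cell stages the PEG10 differences were 0.88 (95% interval -0.99 to 2.74) and 0.02 (95% interval -1.84 to 1.89), the latter -0.35 without the PA 2-cell cells of the repeated pairs. The mean of the 3 stages was 1.20 (95% interval 0.13 to 2.28, adjusted p = 0.299).

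SGCE and PEG10 share the 130-base gap shown above. SGCE was at 1 FPKM or more in 6 cells and PEG10 in 25 of the 42, and 3 cells had both. Over the 20 embryos Pearson's r of their log2 levels was -0.15, a description over embryos that share stages and methods. IVF 4-cell blastomere 1-1 held PEG10 at 60.1 FPKM and SGCE at 0.045 FPKM.

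DIRAS3, a Ras-like GTPase that restrains growth, was at 0 reads in 36 of 42 cells. In zygotes it stood at 3.32, 3.03 and 0 FPKM in IVF and at 0.349, 0 and 0 FPKM in PA. DIRAS3 reached 1 FPKM in 4 cells, 2 of them IVF zygotes, and so passed the filter on low values through that group. Its differences from IVF zygotes are therefore descriptions that support nothing. The 1-cell difference was 1.23 on the log2(FPKM + 1) scale (SE 0.558, 95% interval 0.06 to 2.40, unadjusted p = 0.0398, limma adjusted p = 1). In IVF 2-cell blastomeres DIRAS3 had at most 1 read, and in PA 2-cell blastomeres it had none. It was then found in a single blastomere of each method at the 4-cell stage, 3-3 of IVF (6.18 FPKM, 371 reads) and 2-3 of PA (10.4 FPKM, 385 reads), with 0 reads in the other 8 blastomeres of each group. The PA blastomere had no other member at 1 FPKM.

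NAP1L5, a nucleosome assembly protein-like gene, had 0 reads in all 21 PA cells. It passed the filter on low values through 3 IVF cells and no PA cell, so a gene chosen this way had to differ, and its differences, calls and shares below are descriptions that support nothing. A count of 0 allows up to 3 reads per library, which is 0.0826 to 0.185 FPKM in these cells. In IVF it had at most 1 read in the zygotes, 28 reads (1.06 FPKM) in 2-cell blastomere 3-2, 1745 reads (83.8 FPKM) in 4-cell blastomere 2-3 and 453 reads (14.3 FPKM) in 4-cell blastomere 3-3. In the other IVF cells it had at most 2 reads.

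For NAP1L5 the IVF 4-cell embryos were thus at 0, 41.9 and 3.60 FPKM, a mean of 15.2 ± 23.2 FPKM (SD, n = 3), at least 82.2-fold higher than the 3-read limit of a PA 4-cell library. The IVF and PA embryos overlapped at 0, since IVF embryo 1 had no read in the 3 blastomeres sequenced of it. Being at 0 in every PA cell was shared by 62 of the 8116 genes tested (0.764%), and being at 0 in every IVF cell by 10 (0.123%). limma gave 2.54 on the log2(FPKM + 1) scale at the 4-cell stage (SE 0.788, 95% interval 0.89 to 4.19, unadjusted p = 0.00444, adjusted p = 0.135), a value that depends on the pseudocount. Without IVF 4-cell embryo 1 the difference was 3.81 and was called (adjusted p = 0.00131), and without IVF 4-cell embryo 2 it was 1.10 (adjusted p = 0.235). The call therefore turned on which embryo was left out.

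HERC3, which encodes a ubiquitin ligase, surrounds NAP1L5 and was read in both kinds of embryo, up to 194 FPKM in PA 4-cell blastomere 3-3. In IVF 4-cell blastomere 2-3, the one highest in NAP1L5, HERC3 had 0 reads, and in blastomere 3-3 it was at 0.537 FPKM. One cell held both genes at 1 FPKM or more. PA 4-cell blastomere 3-3 had 22535 reads of HERC3 and none of NAP1L5.

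**Figure D2:**
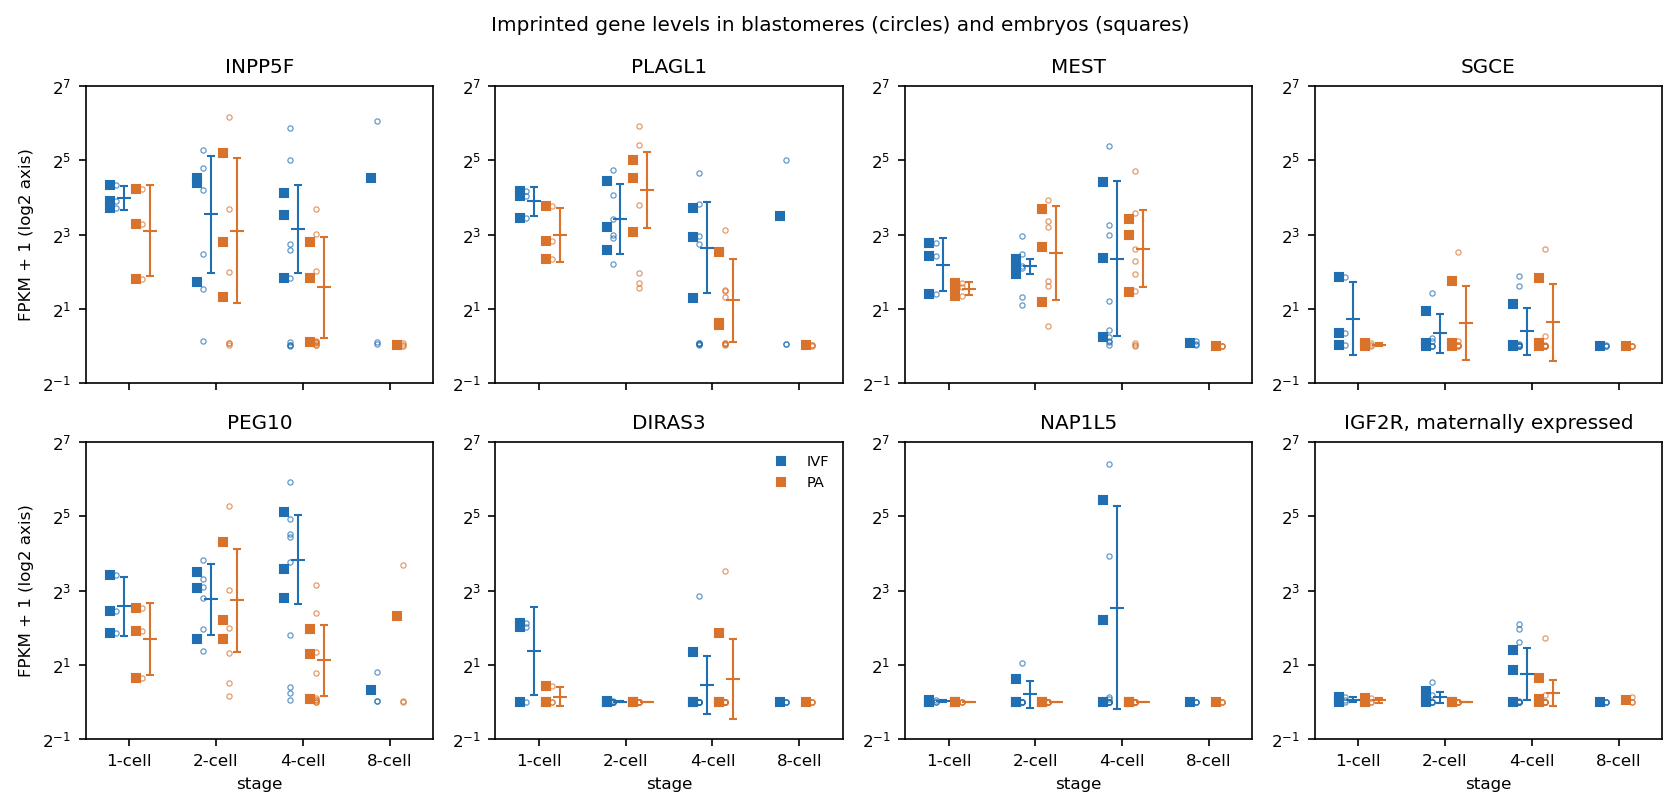
FPKM + 1 on a log2 axis for each gene by stage, IVF in blue and PA in orange, with circles for cells, squares for embryo means and a dash with bars for the mean ± SD of log2 embryo values (n = 3, none at the 8-cell stage with 1 embryo). The IVF and PA 4-cell squares of PEG10 do not overlap, whereas those of MEST do, and all PA values of NAP1L5 lie at 0 FPKM.

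IGF2R, the receptor that carries IGF2 to lysosomes and is expressed from the maternal copy, is the gene that a PA embryo could transcribe from both of its genome sets. It was below 1 FPKM in every cell before the 4-cell stage, with at most 139 reads. It stood at 0, 0.0411 and 0.101 FPKM in IVF and at 0.00548, 0.0857 and 0 FPKM in PA zygotes, at up to 0.440 FPKM in IVF 2-cell blastomeres and at 0 reads in all 6 PA 2-cell blastomeres. At the 4-cell stage the IVF embryos were at 1.64, 0 and 0.831 FPKM and the PA embryos at 0, 0.576 and 0.0508 FPKM. The 4 cells at 1 FPKM or more were IVF blastomeres 1-1 (2.04 FPKM), 1-2 (2.88 FPKM) and 3-2 (3.31 FPKM) and PA blastomere 2-4 (2.30 FPKM). IGF2R met the filter on low values through these IVF blastomeres, so its differences from IVF 4-cell embryos are descriptions. The IVF mean of IGF2R was above the PA mean at all 3 tested stages as deposited, and below it at the 4-cell stage under median-ratio scaling (-0.35, limma adjusted p = 0.557). The IVF minus PA difference at the 4-cell stage was 0.51 on the log2(FPKM + 1) scale (SE 0.314, 95% interval -0.14 to 1.17, limma adjusted p = 0.496). MEST and IGF2R were never both at 1 FPKM or more, although 31 cells had one of them. MEST reached that level in 27 cells and IGF2R in only 4. DIRAS3 and NAP1L5 likewise shared no such cell with IGF2R.

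The 7 paternally expressed genes were then summed in each embryo and set beside IGF2R. The sum was 33.8, 51.9 and 39.5 FPKM in IVF zygotes and 20.2, 24.6 and 21.5 FPKM in PA zygotes, which did not overlap. None of the 8 members did so singly at that stage (0 of 8), while 14.1% of all genes tested had every IVF zygote above every PA zygote. ODF2, the single listed sperm marker read in zygotes, was also higher in the IVF zygotes (mean 1.93 against 0.304 FPKM in PA). Its mean was 1.73 FPKM in PA 2-cell embryos, which had no sperm. Any part of sperm RNA in the difference of the zygote sums was not tested. In 2-cell embryos the sums were 49.1, 18.2 and 42.7 FPKM in IVF embryos, against 45.7, 12.4 and 91.0 FPKM in PA, so PA embryos held both the lowest and the highest. In 4-cell embryos they were 51.3, 88.0 and 34.2 FPKM in IVF embryos, against 20.2, 8.87 and 13.2 FPKM in PA, again without overlap, which held singly for PEG10 and for 9.65% of all genes. The mean sum at that stage was 57.8 ± 27.5 FPKM in IVF embryos, against 14.1 ± 5.72 FPKM in PA (SD, n = 3). Without the repeated 4-cell blastomeres the PA sums were 10.6, 9.04 and 13.2 FPKM, a mean of 11.0 ± 2.12 FPKM. No test was made on a sum over chosen genes.

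The log2 difference between the sum and IGF2R, each with 1 FPKM added, was 5.33 ± 0.30 in IVF and 4.48 ± 0.08 in PA zygotes, 4.99 ± 0.90 and 5.27 ± 1.41 in 2-cell embryos, and 5.02 ± 1.26 and 3.61 ± 0.89 in 4-cell embryos (IVF first, SD, n = 3). In PA 4-cell embryos it was 3.27 ± 0.67 without the repeated blastomeres. With PEG10 left out of the sum, the 4-cell values were 4.36 in IVF and 3.42 in PA, and the value of the single PA 8-cell embryo went from 2.29 to 0.014. The sum stayed above IGF2R, a single gene, in every one of the 20 embryos, the PA embryos included. Single members did not, such as MEST at 0.185 FPKM beside IGF2R at 1.64 FPKM in IVF 4-cell embryo 1. PA embryos have no paternal copy, so the levels of paternally expressed genes in PA embryos are of maternal copies or of transcripts made in the oocyte. Which of these they were was not tested.

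**Figure D3:**
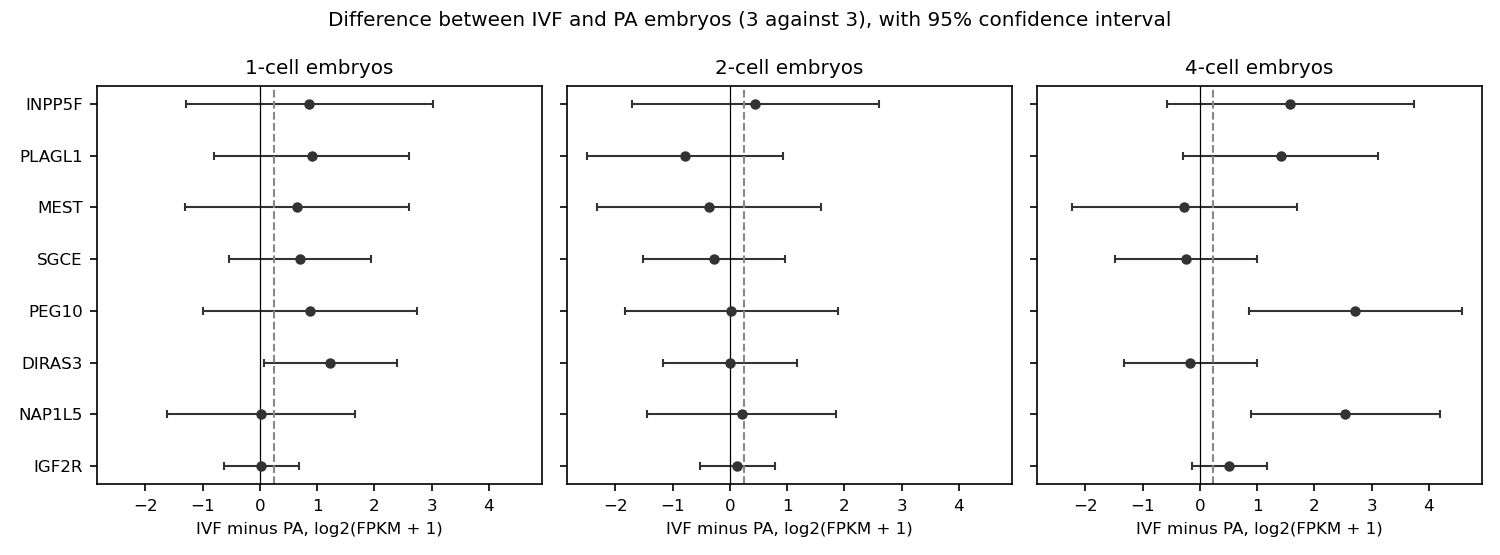
IVF minus PA difference of each gene on the log2(FPKM + 1) scale (points) with its 95% interval from the limma fit (bars), at the 1-, 2- and 4-cell stages with 3 embryos against 3. The dashed line is the median of all 8116 genes; at the 4-cell stage PEG10 (2.71) and NAP1L5 (2.54) have intervals above 0.

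limma called 0 of the 8 members between IVF and PA embryos at the 1-cell, 2-cell and 4-cell stages and over their mean, where a call needed a 2-fold change with an adjusted p below 0.05. Of all genes tested, 0.0493%, 0%, 0.554% and 0.037% were called in these 4 comparisons. Members with an unadjusted p below 0.05 numbered 1 (DIRAS3), 0, 2 (PEG10 and NAP1L5) and 1 (PEG10) of 8, where 4.09%, 5.43%, 14% and 14.6% of all genes had one. DIRAS3 and NAP1L5 passed the filter through IVF cells in which they were high, so their p-values support nothing. No other tool was run.

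Of the 7 paternally expressed genes, all 7 had a higher mean in IVF at the 1-cell stage, with a median difference of 0.87 on the log2(FPKM + 1) scale. The median of all genes was 0.24, and 65.7% of them were higher in IVF. At the 2-cell stage 4 were higher and 3 lower (median 0.01, all genes 0.25). At the 4-cell stage 4 were higher (INPP5F, PLAGL1, PEG10 and NAP1L5) and 3 lower (MEST, SGCE and DIRAS3), with a median of 1.42 beside 0.23 for all genes. Under median-ratio scaling the all-gene median at the 4-cell stage moved to -0.14, PLAGL1 to 0.02 and SGCE to 0.02. Without the repeated 4-cell blastomeres MEST and SGCE were higher in IVF as well. NAP1L5, which passed the filter through IVF cells alone, is among the genes counted as higher. So is DIRAS3 at the 1-cell stage, which passed it through the IVF zygotes.

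In the steps between stages limma again called 0 of 8 members. The IVF steps from 1- to 2-cell, 2- to 4-cell and 4- to 8-cell called 0%, 1.11% and 6.97% of all genes, and the PA steps 0.0986%, 0.394% and 9.99%. An unadjusted p below 0.05 was reached by 1 (DIRAS3), 1 (NAP1L5) and 2 (PEG10 and NAP1L5) members in IVF and by 0, 1 (PLAGL1) and 0 in PA. The shares of all genes were 2.66%, 17.6% and 19.4% in IVF and 4.85%, 10.8% and 20.7% in PA. The p-values of DIRAS3 and NAP1L5 support nothing here either, since the filter was met through the IVF cells high in them. The tests of the IVF minus PA difference in these steps called 0 members and 0%, 0% and 2.86% of genes, and had an unadjusted p below 0.05 for 0, 2 (PEG10 and NAP1L5) and 1 (PEG10) members beside 2.8%, 5.35% and 14.5% of genes.

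NAP1L5 was called in further comparisons without IVF 4-cell embryo 1. These were the mean of the 3 stages (1.35, adjusted p = 0.0420), the IVF steps into (3.61, adjusted p = 0.00144) and out of (-3.81, adjusted p = 0.00710) the 4-cell stage, and the IVF minus PA difference in the 2- to 4-cell step (3.61, adjusted p = 0.0435). For IGF2R the IVF 4- to 8-cell step was -0.76 (adjusted p = 0.389), and -1.14 (adjusted p = 0.0404) without IVF 4-cell embryo 2, the embryo in which IGF2R was at 0. The 8-cell arm of the 4- to 8-cell steps is a single embryo, so their calls rest on the spread of the other groups. IGF2R reached 1 FPKM in 3 IVF 4-cell cells and 1 PA 4-cell cell. It thus passed the filter on low values through the IVF 4-cell group, and its fall from that group supports nothing.

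At the 8-cell stage, with 1 embryo per method and no test between them, the members were at trace level in 4 of the 6 blastomeres. In IVF blastomeres 1-1 and 1-2 the highest member value was 0.0756 FPKM, while blastomere 1-3 held INPP5F at 65.6 FPKM (6121 reads) and PLAGL1 at 31.2 FPKM (5643 reads). In PA blastomeres 1-1 and 1-2 it was 0.0664 FPKM, and blastomere 1-4 held PEG10 at 12.0 FPKM (2110 reads). MEST, present at the 4-cell stage in both methods, had at most 18 reads in an 8-cell blastomere. Its 8- minus 4-cell difference was -2.28 in IVF (95% interval -5.05 to 0.49, adjusted p = 0.381) and -2.62 in PA (95% interval -5.39 to 0.15, adjusted p = 0.278), in a fit that gives the lone 8-cell embryos the spread of the other groups. The same difference of PEG10 was -3.50 in IVF (95% interval -6.14 to -0.87, adjusted p = 0.110).

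Sister blastomeres of the same embryo differed in which members they held. Of the 96 combinations of 8 members and the 12 2-cell and 4-cell embryos, 37 had the gene at 1 FPKM or more in some but not all of the sequenced sisters, and 34 of 88 without the repeated 4-cell blastomeres. INPP5F was split in 9 of 12 embryos, PEG10 in 6, PLAGL1 and MEST in 5 each, SGCE in 4, NAP1L5 and IGF2R in 3 each and DIRAS3 in 2. The same count was not made over all genes tested, so it is not a result about these members. The SD of log2(FPKM + 1) within embryos was 2.29 for INPP5F, 1.74 for PLAGL1, 1.71 for PEG10 and 1.54 for MEST. Between embryo means of a group, zygotes included, it was 1.36, 0.945, 1.06 and 1.13 for the same genes. The medians over all genes tested were 1.27 within and 0.985 between embryos. These SDs are not alike, since a mean over blastomeres varies less than a single blastomere. A larger value within than between embryos is therefore no result about imprinted genes.

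In PA 2-cell embryo 3, for example, blastomere 3-1 held PLAGL1 at 59.9 FPKM and INPP5F at 0.059 FPKM, while its sister 3-2 held PLAGL1 at 2.88 FPKM, INPP5F at 70.7 FPKM and PEG10 at 37.5 FPKM. In IVF 4-cell embryo 2, blastomere 2-3 had 5 paternally expressed members at 1 FPKM or more, summing to 176 FPKM, and its sister 2-2 had none, with a sum of 0.324 FPKM.

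**Figure D4:**
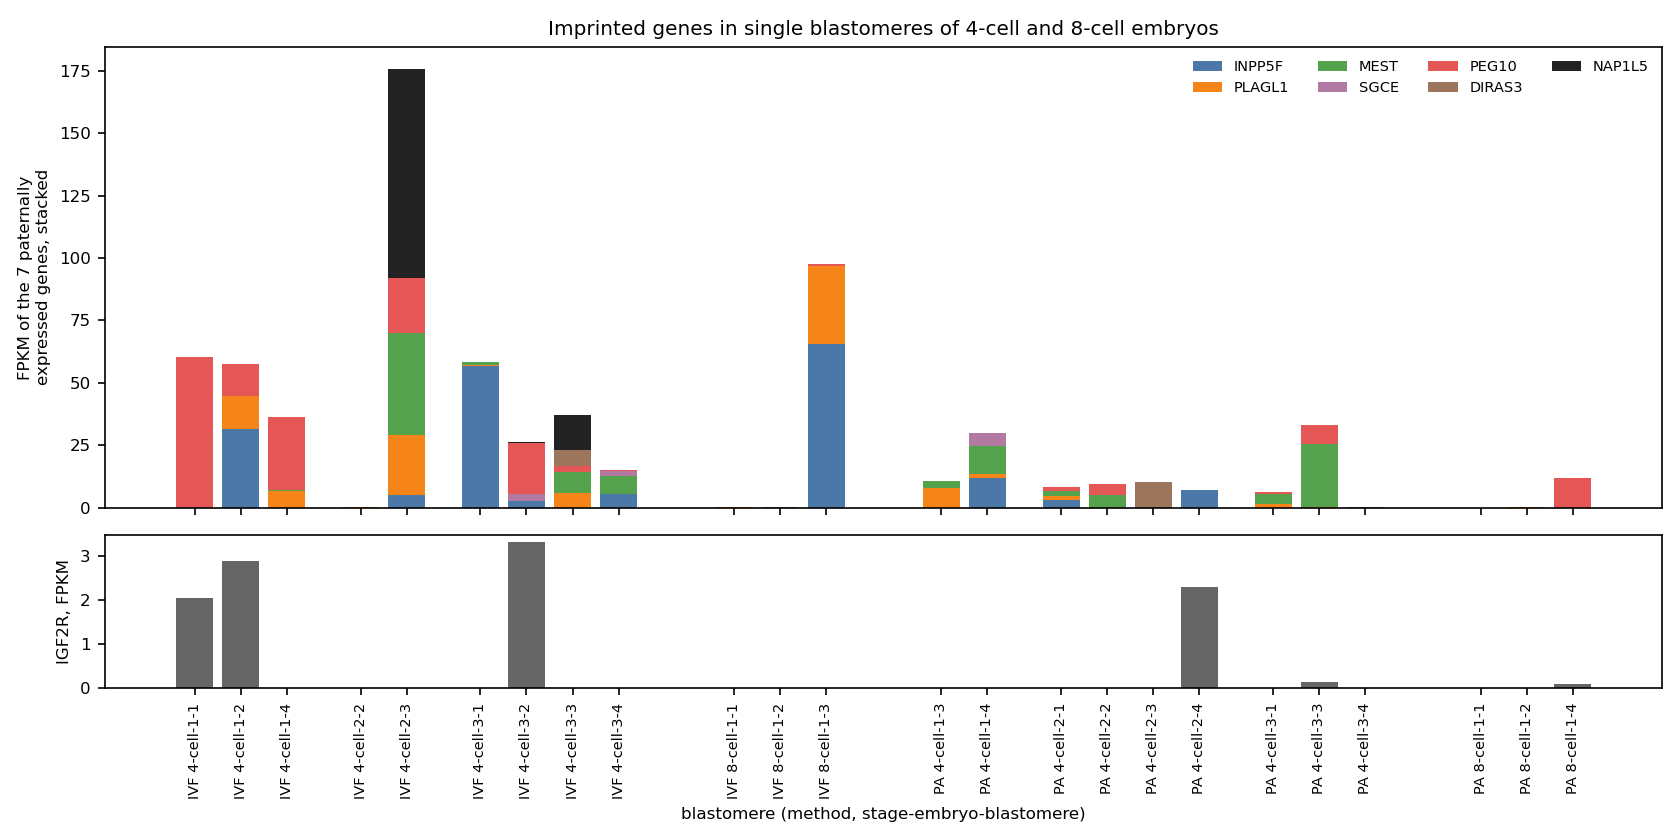
FPKM of the 7 paternally expressed genes, stacked, (upper panel) and of IGF2R (lower panel) in each 4-cell and 8-cell blastomere, with embryos set apart by gaps. Single genes make up nearly the whole of some bars, such as PEG10 in IVF 4-cell 1-1 and DIRAS3 in PA 4-cell 2-3, and the tallest bar is IVF 4-cell 2-3 at 176 FPKM.

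The paternally expressed member with the highest level in a cell made up 35.6 to 43.0% of the cell's sum in IVF zygotes (median 36.7%) and 43.0 to 72.8% in PA zygotes (median 58.9%). In 2-cell blastomeres the medians were 48.6% and 64.1%. In the 8 IVF and 8 PA 4-cell blastomeres with any paternally expressed member at 1 FPKM, it made up 38.4 to 99.8% (median 66.9%) and 36.2 to 99.5% (median 67.7%). That gene was 1 of 4 different members in each method at that stage. One 4-cell blastomere of each method, 2-2 of IVF and 3-4 of PA, had no paternally expressed member at 1 FPKM. The part that amplification of single-cell cDNA had in these patterns was not tested.

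Between members, the highest Pearson's r over the 20 embryos was 0.62, for INPP5F and PLAGL1. It was 0.49 for MEST and NAP1L5 and 0.42 for PEG10 and IGF2R, all descriptions over embryos that share stages. The genes tested with the most similar pattern to INPP5F were ENSSSCG00000037181 (r = 0.81) and BCL2L1 (0.80), to PLAGL1 STXBP5L (0.86) and NRG4 (0.84), to MEST KIF2A (0.75) and ZMYM3 (0.74), and to PEG10 RBM28 (0.79) and DDX46 (0.75). The closest to SGCE were HGH1 (0.88) and ENSSSCG00000030086 (0.87), to DIRAS3 RUFY2 (0.81) and ZDHHC21 (0.77), to NAP1L5 ENSSSCG00000027046 (0.99) and E2F6 (0.98), and to IGF2R ANXA2R (0.95) and ENSSSCG00000036877 (0.94). Those of NAP1L5 were at 1 FPKM or more in 3 cells each and highest in the same blastomere, IVF 4-cell 2-3, so that likeness rests on few cells. Others rest on few cells too. ANXA2R reached 1 FPKM in 3 cells and, like IGF2R, was highest in IVF 4-cell 3-2. ZDHHC21 (5 cells) was highest in PA 4-cell 2-3, as was DIRAS3. RUFY2, HGH1 and ENSSSCG00000030086 reached it in 6 cells each, the last highest in the repeated library PA 2-cell 1-2.

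Other imprinted genes and the genes that keep imprints were looked at as lists. Of 19 further paternally expressed genes 6 were analysed and 2 passed the filter on low values, and of 21 further maternally expressed genes 12 were analysed and 4 passed it. limma called 0 of these 6 in any of the 13 comparisons. At the 4-cell stage the IVF minus PA median was 0.88 for the 2 paternally and 0.16 for the 4 maternally expressed genes, beside 0.23 for all genes, and 1 and 0 of them had an unadjusted p below 0.05. Of 24 imprint maintenance genes 18 were analysed and 17 passed the filter, and limma called 0 of these between IVF and PA at any stage, with 0, 1 and 4 at an unadjusted p below 0.05 at the 1-, 2- and 4-cell stages, where 4.09%, 5.43% and 14% of all genes had one.

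Between stages limma called 1 of the 17 maintenance genes in IVF and 2 in PA, all for the 4- to 8-cell step, in which 6.97% and 9.99% of all genes were called. The share is near that of all genes, so it is not a result about this list. DNMT1, the methyltransferase that copies methylation after replication, went from a mean of 703 to 41.2 FPKM in IVF (-3.996 on the log2(FPKM + 1) scale, SE 0.531, limma adjusted p = 6.53e-05) and from 836 to 44.4 FPKM in PA (-4.18, SE 0.531, adjusted p = 5.81e-05). UHRF2, which binds hemimethylated DNA, fell from 369 to 54.3 FPKM in PA (-2.69, SE 0.746, adjusted p = 0.0251) and had 311 and 55.5 FPKM in IVF. Both steps rest on a single 8-cell embryo per method.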

How the data were processed

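The members and gene lists were chosen with earlier results of these data known. Single cells were lysed, and their cDNA was amplified with Ansuper-seq, which takes transcripts with and without polyA. The extraction protocol in the labels describes another procedure, total RNA of oocytes. According to the study's methods and the submitters' processing notes, the authors mapped reads with HISAT2 to Sscrofa11.1, assembled transcripts with StringTie, counted with HTSeq and deposited FPKM per gene and cell. Program versions, strand and molecular identifiers are not given in the sources used here. The deposited FPKM are scaled within each cell only.

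The FPKM of an embryo's blastomeres were averaged. The 8116 genes that reached 1 FPKM in 3 or more cells entered limma 3.58.1 (R 4.3.3, mean-variance trend, Benjamini-Hochberg adjustment over these genes) as log2(mean FPKM + 1). All 20 embryos of the 8 groups entered a single fit, in 13 comparisons. A call needed a 2-fold change with an adjusted p below 0.05. Fold changes on this scale understate the change of low genes. The fit was tested on simulated data. Whole reads were recovered from the smallest step of each gene's FPKM, with 99.995% of values under 50 reads whole within 0.02. They served as depth and were not tested as counts. Intervals cover the spread between embryos, and read floors cover counting error only.

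Named genes are the members, genes overlapping them, the 2 genes most alike to each by Pearson's r, and called genes of the lists. Sequences were read from the Sscrofa11.1 genome, the build of the deposited table. Other tools were Python 3.11.15, numpy 2.4.6, pandas 2.3.3 and matplotlib 3.10.9.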

Additional observations from a re-analysis of the deposited data

Results flagged for a closer look

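Single blastomeres that stood apart from the rest of their group of 6 or 9 were looked for by the gap to the nearest value against the group's range (Dixon's 95% limit), in the 26 sets of a member and a group with any value of 1 FPKM or more. Blastomeres of an embryo are not independent. Dixon's limit flags about 1 set in 20 by chance only for independent, normally distributed values, which these FPKM were not shown to be. Any set with reads in a single cell is flagged whatever the level of that cell, as for DIRAS3 in IVF 4-cell blastomere 3-3. The number of sets flagged by chance is therefore not known, and the flagged values are descriptions. The search gave 14 values.

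In IVF blastomeres these were NAP1L5 in 4-cell 2-3 (83.8 FPKM, next 14.3) and in 2-cell 3-2 (1.06, next 0), MEST in 4-cell 2-3 (40.9, next 8.53), PEG10 in 4-cell 1-1 (60.1, next 29.2), DIRAS3 in 4-cell 3-3 (6.18, next 0) and SGCE in 2-cell 3-2 (1.70, next 0.161). IVF 4-cell 2-3 was thus highest in both NAP1L5 and MEST.

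In PA blastomeres they were INPP5F in 2-cell 3-2 (70.7 FPKM, next 11.8), PEG10 in 2-cell 3-2 (37.5, next 7.13), PLAGL1 in 4-cell 1-3 (7.69, next 1.82), MEST in 4-cell 3-3 (25.2, next 11.0), DIRAS3 in 4-cell 2-3 (10.4, next 0), IGF2R in 4-cell 2-4 (2.30, next 0.146), and SGCE in 2-cell 1-2 (4.75, next 0.106) and 4-cell 1-4 (5.10, next 0.213). The last pair are libraries that nearly repeat each other. The values just below PLAGL1 in 4-cell 1-3, MEST in 4-cell 3-3 and INPP5F in 2-cell 3-2 also belong to these repeated libraries.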

How the results depend on the processing

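The 31 alternatives comprised 11 changes of scale, filter, pseudocount or fit, 2 without the repeated libraries and 18 that left out an embryo in turn. Under the 11 changes the number of members called was 0 in all 13 comparisons, the embryo number as a replicate block among them. Some of these changes left members untested, as given below. Leaving out an embryo moved that number between 0 and 1 for the IVF and PA 4-cell embryos and the mean of stages, for the IVF steps 2- to 4-cell and 4- to 8-cell, for the PA step 2- to 4-cell and for the IVF minus PA difference in the 2- to 4-cell step, and left it at 0 elsewhere. Whether the embryo number marks a shared origin is not stated. Residuals of same-numbered embryos had r of -0.041 to 0.355 over 45 pairs (median 0.008, 4 above 0.1). The median was -0.003 in 90 other pairs. Both pairs of repeated libraries join PA embryos of the same number. These values cannot decide the question, since embryos of a shared origin need not correlate. With the embryo number as a block PEG10 at the 4-cell stage was unmoved at 2.71 (limma adjusted p = 0.161). Of 25 single-gene differences followed, 20 kept their direction under all alternatives run. At the 4-cell stage MEST (-0.27) was 0.014 with a pseudocount of 5, 0.086 without the repeated PA 4-cell blastomeres and -1.31 to 0.78 with an embryo left out (0.13 without PA embryo 3). SGCE (-0.24) was 0.018 under median-ratio scaling, 0.38 without the repeated blastomeres, 0.085 with blastomeres as samples and -0.61 to 0.35 with an embryo left out. IGF2R was -0.35 under median-ratio scaling. PEG10 at the 2-cell stage (0.02) was -0.035 with a pseudocount of 5, -0.069 with nuclear genes rescaled, -0.34 under median-ratio scaling, -0.35 without the repeated PA 2-cell blastomeres and -0.50 to 0.81 with an embryo left out (-0.13 without IVF embryo 2). The IVF 2- to 4-cell step of PLAGL1 (-0.77) was 0.061 under median-ratio scaling. The causes were not tested.

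With a pseudocount of 0.1, the log2 difference between the paternally expressed sum and IGF2R was 8.19, 7.59 and 6.62 in IVF and 7.47, 8.55 and 5.96 in PA 1-, 2- and 4-cell embryos. Without PEG10 it was 4.29 in PA zygotes, and 4.36 and 3.42 in IVF and PA 4-cell embryos. Without the repeated blastomeres it was 3.27 in PA 4-cell and 5.55 in PA 2-cell embryos. Split sisters numbered 39 at a threshold of 0.1 FPKM and 33 at 5 FPKM in place of 37 (both thresholds, and leaving embryos or repeated blastomeres out of this difference, were chosen after seeing the data).

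The filter at 5 FPKM left SGCE, DIRAS3, NAP1L5 and IGF2R out of the tests, and under median-ratio scaling NAP1L5 was left out. The genes called at the 4-cell stage numbered 45 (34 up, 11 down), 395 under median-ratio scaling (104 up, 291 down), 330 without the repeated PA 4-cell blastomeres, 432 without IVF 4-cell embryo 1 and 0 with the compared groups alone. The median SE of 0.816 between groups of 3 embryos limits what could be called.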
